A study of Mus musculus with 12 samples.

Results

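The interferon-stimulated genes described here are 49 named mouse genes that cells switch on in response to interferons, taken from a table of 55401 genes by matching the gene identifier of each row to its symbol. All 49 matched 1 row each, and all 49 passed the filter on low counts. RNA was sequenced from Th17 cells, an interleukin-17 producing class of helper T cell, differentiated from naive T cells of wild-type mouse lymph nodes. There were 4 groups of 3 libraries: None (differentiated cells with no inhibitor named), Kira8, Stattic, and Kira8+Stattic, the inhibitors having been given for 4 h. All 4 groups share the wild-type genotype, the lymph node source and the differentiation, and the doses and any solvent in None were not given in the sources used here. Kira8 is an inhibitor of IRE1alpha, the kinase and RNase that senses unfolded protein in the endoplasmic reticulum, and Stattic is a small molecule inhibitor of STAT3. Whether a group's replicates are separate cultures or separate animals is not in the labels, and p-values below therefore reflect only how far these libraries differ, a spread that can be technical.

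Interferons bind surface receptors whose JAK kinases activate transcription factors. Type I interferon signals mainly through ISGF3, a complex that includes STAT2 and IRF9 and binds the interferon-stimulated response element (ISRE), whereas interferon gamma, a product of helper T cells, acts mainly at the gamma-activated site (GAS) and induces IRF1. The products include RNA sensors, enzymes that block viral RNA or protein synthesis, the ubiquitin-like protein ISG15 and its machinery, and the transcription factors that carry the response further.

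Promoter windows were searched to show which of the genes carry these elements, and the stretches below belong to genes that later moved in opposite directions with Stattic. RefSeq windows on GRCm38.p6, running from 250 bases before to 50 bases after a start, were held for 39 of the 49 genes, in 50 windows. The ISRE core (GAAA and GAAA separated by any 2 bases, or TTTC and TTTC so separated on the other strand) was in 38.0% of the 50 windows and in 3.44% of 32851 windows of all genes. The GAS core (TTCNNNGAA, which reads the same on both strands) was in 20.0% of the 50 windows and 8.3% of all windows. Each line gives the 150 bases before the start, 5′ to 3′ on the gene's own strand, with the matched letters in capitals.

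Isg15: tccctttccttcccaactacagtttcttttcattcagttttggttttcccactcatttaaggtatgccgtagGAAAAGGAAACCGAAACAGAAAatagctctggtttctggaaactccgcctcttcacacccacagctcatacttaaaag
Rsad2: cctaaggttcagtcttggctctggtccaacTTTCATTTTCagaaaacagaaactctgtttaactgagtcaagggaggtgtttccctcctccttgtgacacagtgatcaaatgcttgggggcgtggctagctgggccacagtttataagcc
Oas3: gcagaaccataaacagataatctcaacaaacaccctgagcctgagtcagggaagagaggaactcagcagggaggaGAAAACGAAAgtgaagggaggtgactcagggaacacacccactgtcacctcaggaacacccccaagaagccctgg
Trim30a: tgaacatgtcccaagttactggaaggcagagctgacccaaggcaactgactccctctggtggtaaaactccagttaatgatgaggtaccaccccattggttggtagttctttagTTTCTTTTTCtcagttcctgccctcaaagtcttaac
Irf1: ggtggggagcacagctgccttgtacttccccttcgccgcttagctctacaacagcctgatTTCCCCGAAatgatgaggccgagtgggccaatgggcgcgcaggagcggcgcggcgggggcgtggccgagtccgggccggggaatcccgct

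The Isg15 stretch is chr4:156200819-156200968 on the minus strand, where 3 overlapping ISRE cores begin at -78, -72 and -66 from the start. The Rsad2 stretch is chr12:26456453-26456602 on the minus strand, with its core at -120. The Oas3 stretch is chr5:120777660-120777809 on the minus strand (core at -75), and the Trim30a stretch is chr7:104465194-104465343 on the minus strand (core at -36). The Irf1 stretch is chr11:53769864-53770013 on the plus strand and holds a GAS core at -90. These matches describe letters in a window and say nothing of binding in these cells. An ISRE core was held by 2 of 4 genes with a window that were higher with Stattic, 9 of 19 that were lower and 6 of 16 that were not called.

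Of the 12 libraries, 10 held 51.7 to 85.9 megacounts, 3.38 to 5.22% of them mitochondrial, and Kira8 replicate 2 and Stattic replicate 2 held 19.8 and 9.28 megacounts, 61.5% and 10.7% mitochondrial. Spearman's rho across genes with at least 10 counts in at least 6 libraries, which are not independent, was 0.904 to 0.987 among the 10, while the former of the pair reached 0.533 to 0.559 with them and the latter 0.492 to 0.528, and 39 and 40 of the 49 genes had any count in the 2. The values below rest on the 10 libraries (3 None, 2 Kira8, 2 Stattic, 3 Kira8+Stattic). Counts of calls with all 12 are given, where calls were lost, for each comparison of the 49 genes and for the pathway and further lists. T cell markers summed to 1218 to 2045 CPM (counts per megacount of library size, scaled by TMM) over the 10 libraries. Il17a was at 514, 1394 and 247 CPM in None and 134 to 180 CPM in the other libraries, so the None libraries differed widely among themselves in this Th17 product.

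Stattic alone against None asked how the genes respond when STAT3 is targeted. Of the 49 genes, 27 were lower with Stattic, 5 were higher and 17 did not pass (edgeR quasi-likelihood test, Benjamini-Hochberg adjusted p under 0.05 over 21239 genes). Over all genes tested, 18.9% were called lower and 20.1% higher. The median change of the 49 genes was -1.27 on the log2 scale, against 0.08 for all genes tested. Together the 49 genes took 0.333 to 0.403% of the counts in None, 0.313 to 0.333% in Kira8, 0.153 to 0.170% in Stattic and 0.138 to 0.174% in Kira8+Stattic. In bulk RNA, fewer cells of a type and less RNA per cell cannot be told apart. With all 12 libraries, 0 genes were called higher and 1 lower, Dtx3l, with 1 and 11 at an unadjusted p under 0.05, while the sign was kept by 5 of the 5 and 22 of the 27. In that fit 0.105% and 0.205% of all genes were called higher and lower at the adjusted p. The common dispersion was 1.01 there, against 0.143 with 10 libraries. A voom fit that down-weights deviating libraries, run on all 12, called the same 5 higher and 26 of the 27 lower, where 19.7% and 17.4% of all genes were called.

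**Figure D1:**
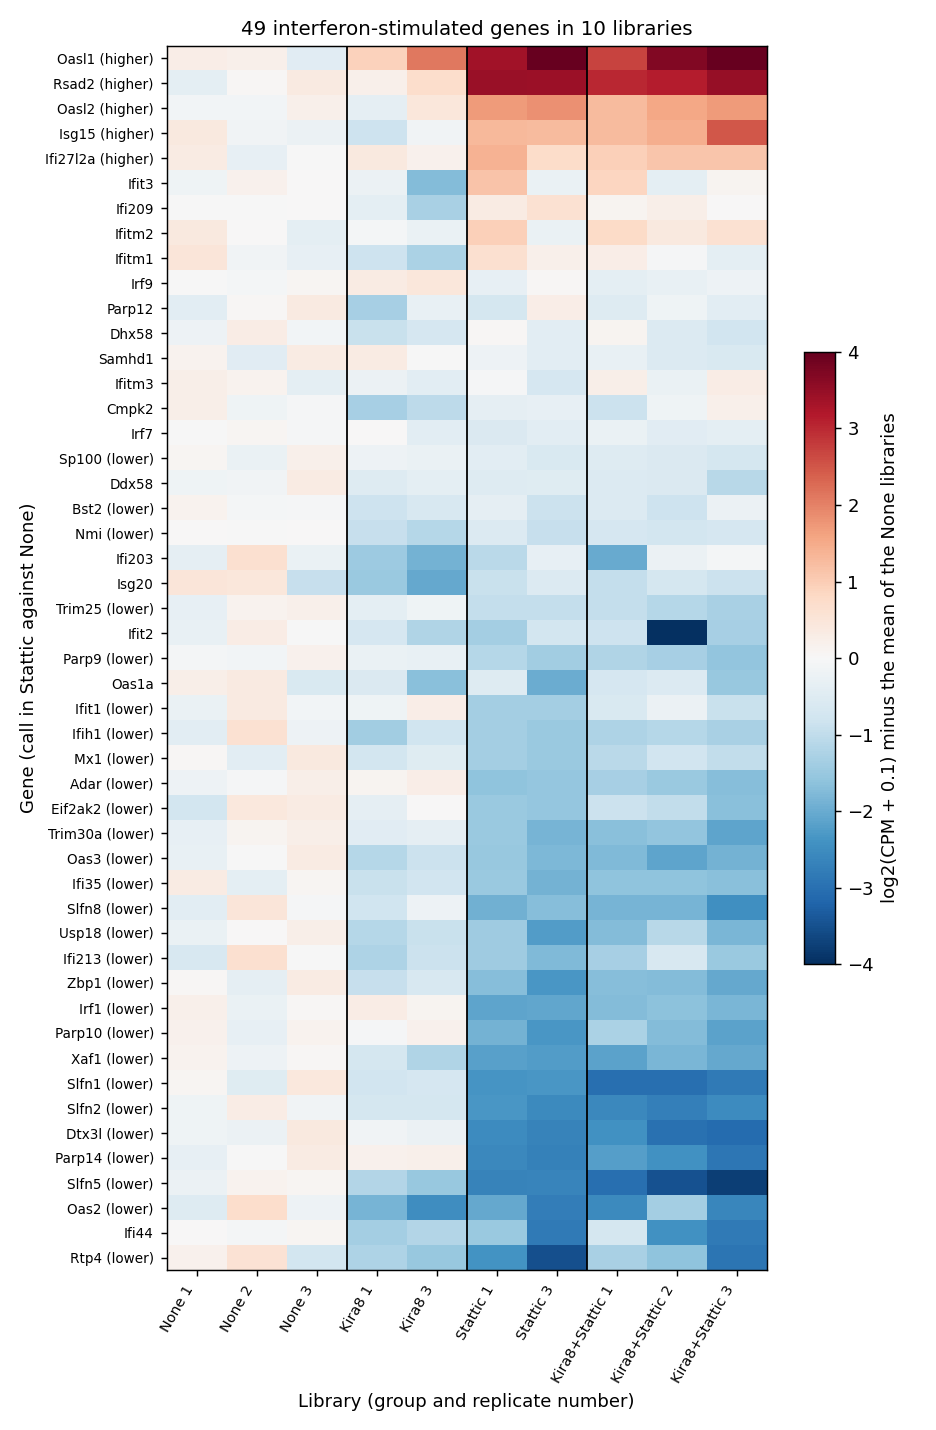
Each row is 1 of the 49 genes, ordered by its change in Stattic against None, and each column 1 of the 10 libraries; color gives log2(CPM + 0.1) minus the mean of the None libraries. The 5 rows at the top are raised in all 5 libraries with Stattic, and most lower rows are reduced in those libraries.

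The 5 higher genes were Rsad2, Oasl1, Oasl2, Isg15 and Ifi27l2a. Rsad2, Oasl1 and Oasl2 average under 5 CPM, below the minimum of the naming rule, and are named after their values were seen. Rsad2 (ENSMUSG00000020641, chr12:26442746-26456452, minus strand) encodes viperin, a radical SAM enzyme that makes a chain-terminating nucleotide. Its level was 0.403, 0.585 and 0.741 CPM in None, 0.667 and 0.968 in Kira8, 7.15 and 6.98 in Stattic, and 5.26, 5.73 and 7.23 in Kira8+Stattic. Among the 10 libraries, none without Stattic reached 1 CPM and none with it was under 5 CPM. The 2 libraries left out go the other way: Kira8 replicate 2 was above all of these and Stattic replicate 2 had no count, as given below. The change was 12.2-fold with Stattic alone (log2 3.61 ± 0.33 SE, n = 3 and 2, edgeR adjusted p = 1.02e-05).

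Oasl1 (ENSMUSG00000041827, chr5:114923240-114937915) and Oasl2 (ENSMUSG00000029561, chr5:114896936-114912234) lie in line on the plus strand, 11005 bases apart, and encode relatives of the oligoadenylate synthetases. Oasl1 was at 0.619, 0.585 and 0.333 CPM in None, 1.03 and 2.49 in Kira8, 6.08 and 10.5 in Stattic, and 3.77, 7.64 and 13.6 in Kira8+Stattic. The Stattic libraries stood above every None library, and within each group with Stattic the level varied more than that of Rsad2. The change with Stattic alone was 16.1-fold (log2 4.01 ± 0.55 SE, n = 3 and 2, edgeR adjusted p = 0.000154). Oasl2 was at 1.27, 1.28 and 1.6 CPM in None, 1.04 and 1.9 in Kira8, 4.75 and 5.18 in Stattic, and 3.46, 4.18 and 4.67 in Kira8+Stattic, a 3.59-fold change with Stattic alone (log2 1.84 ± 0.32 SE, edgeR adjusted p = 0.000853). Neither gene's promoter window held an ISRE or GAS core.

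Isg15 (ENSMUSG00000035692, chr4:156199424-156200818) encodes the ubiquitin-like modifier itself. It was at 3.97, 2.69 and 2.54 CPM in None, 1.66 and 2.72 in Kira8, 7.51 and 7.34 in Stattic, and 7.44, 8.46 and 17.5 in Kira8+Stattic. The lowest library with Stattic was above the highest without it. The 2.42-fold change with Stattic alone (log2 1.27 ± 0.37 SE, n = 3 and 2, edgeR adjusted p = 0.0171) lost its call without None replicate 2 or 3 or Stattic replicate 1 or 3, with adjusted p from 0.0502 to 0.0653. Ifi27l2a (ENSMUSG00000079017, chr12:103442167-103443680), which encodes a small membrane protein, was at 74.4, 47.1 and 58.8 CPM in None, 76.8 and 67.3 in Kira8, 156 and 99 in Stattic, and 114, 127 and 127 in Kira8+Stattic. Its rise was 2.12-fold (log2 1.08 ± 0.22 SE, edgeR adjusted p = 0.00199). In Stattic replicate 2, one of the libraries kept out, Rsad2, Oasl1 and Isg15 had 0 counts, Oasl2 had 2 and Ifi27l2a 1025, and 3 counts there correspond to 0.344 CPM.

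**Figure D2:**
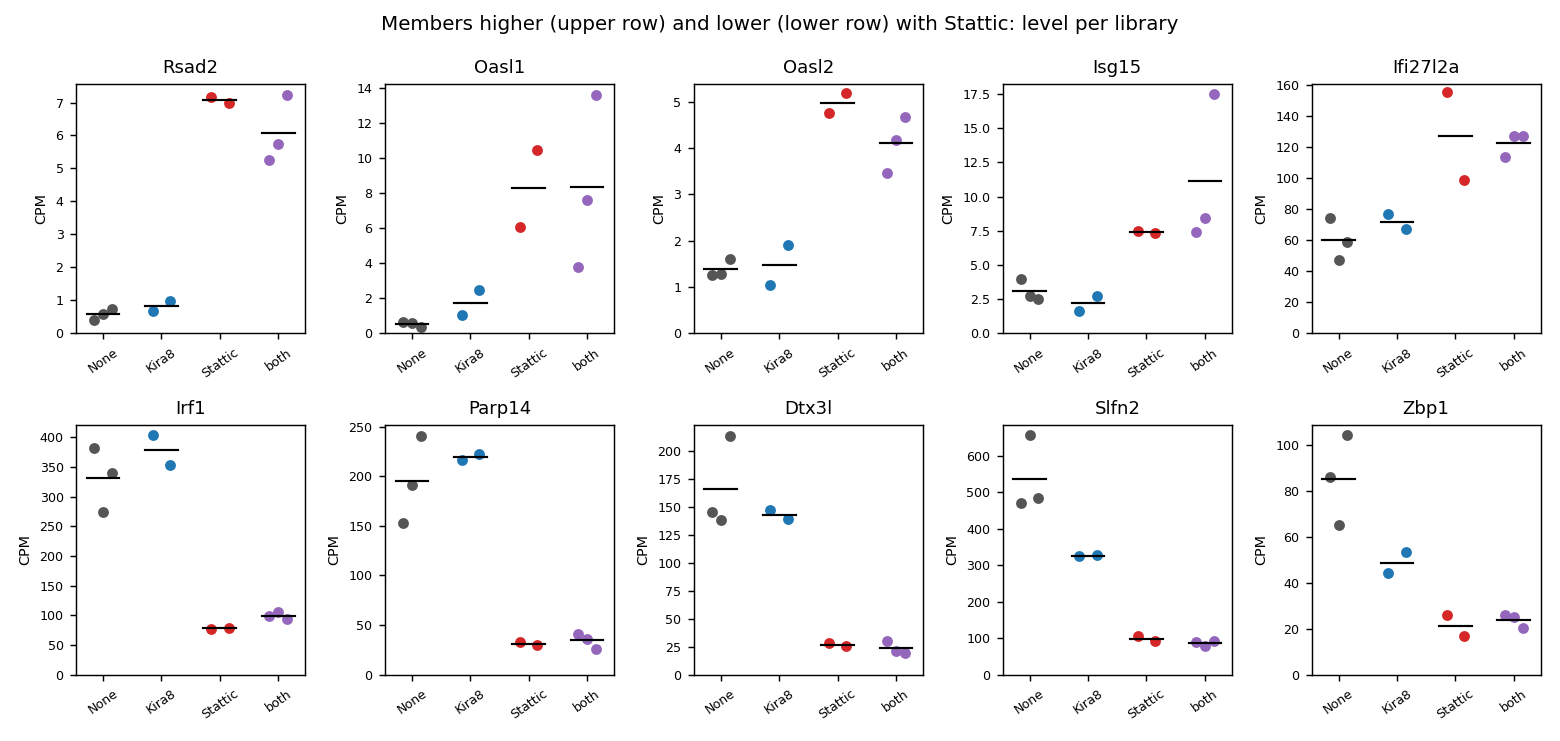
Points are the CPM of each of the 10 libraries by group, and bars are group means, for 5 genes higher with Stattic (upper row) and 5 lower (lower row). In every panel the 5 libraries with Stattic do not overlap the 5 without it. Over all genes, 16.4% were higher and 14.8% lower without overlap in this way.

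Per kilobase of exon, the genes that rose differed in starting level. In None, Rsad2 was at 0.133, Oasl1 at 0.196 and Oasl2 at 0.217 CPM per kilobase, all among the 5 lowest of the 49 genes, and Isg15 was at 4.06. Ifi27l2a was at 130 CPM per kilobase, below Slfn2 alone at 323. With Stattic, Rsad2 was at 1.63, Oasl1 at 3.17, Oasl2 at 0.779, Isg15 at 9.82 and Ifi27l2a at 275 CPM per kilobase.

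The other genes of the ISG15 system were lower. Usp18, the protease that removes ISG15 and blocks the interferon receptor, was at 3.04, 3.71 and 4.36 CPM in None and 1.29 and 0.694 in Stattic (log2 -1.90 ± 0.42 SE, edgeR adjusted p = 0.00395, and 0.051 without Stattic replicate 3). The direction of Usp18 turned with all 12 libraries (log2 2.04, edgeR adjusted p = 0.437). Trim25, a ligase for ISG15 and for the sensor RIG-I, was at 81.5, 112 and 119 CPM in None and 53.6 and 52.8 in Stattic (log2 -0.97 ± 0.19 SE, edgeR adjusted p = 0.00157). So 1 of the 3 genes rose and 2 fell.

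Among 14 RNA-binding and nucleotide effectors, 3 were higher, 5 lower and 6 not called. The lower genes were Ifit1, which binds viral RNA caps, the kinase PKR (Eif2ak2), the synthetases Oas2 and Oas3, and the RNA deaminase Adar. Oas3 was at 12, 14.6 and 18.6 CPM in None, 5.12 and 4.16 in Stattic, and 4.3, 3.39 and 3.94 in Kira8+Stattic (log2 -1.70 ± 0.26 SE for Stattic alone, edgeR adjusted p = 0.000315). Adar was at 140, 155 and 190 CPM in None, 172 and 191 in Kira8, and 49.4 to 63.7 in the 5 libraries with Stattic (log2 -1.59 ± 0.18 SE, edgeR adjusted p = 4.18e-05). Every library without Stattic lay above every library with it for both genes. The call for Oas2 (log2 -2.75 ± 0.69 SE) ended without Stattic replicate 3 (edgeR adjusted p = 0.0754), and that for Ifit1 without Stattic replicate 1 or 3 (0.059 and 0.0703). Oas2 with all 12 libraries stood at a log2 difference of 0.26. Not called were Ifit2, Ifit3, Oas1a, Isg20, Samhd1 and Cmpk2, with changes from -1.29 to 0.64 on the log2 scale.

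Neighbours did not always move together. Rsad2 and Cmpk2, a nucleotide kinase, are divergent genes 12751 bases apart, and Cmpk2 was at 3.14, 2.37 and 2.59 CPM in None and 2.05 and 2.12 in Stattic (log2 -0.37 ± 0.38 SE, edgeR adjusted p = 0.465). Mx1, a dynamin-like GTPase that blocks viruses, fell (log2 -1.54 ± 0.37 SE, edgeR adjusted p = 0.00572), and Mx2, 72400 bases away and not among the 49, rose from 0.514 to 0.908 CPM in None to 5.08 and 6.36 CPM in Stattic (log2 2.90 ± 0.36 SE, edgeR adjusted p = 8.37e-05). Oas2 and Oas3, 3244 bases apart, both fell. Dtx3l and Parp9, which start 681 bases apart on opposite strands, also both fell. Their annotated spans overlap, and the sources used here do not say if counting used strand, so reads from the shared stretch may be assigned to either. How near-identical copies were counted is likewise unknown, and values for the Ifit, Oas, Ifitm, Schlafen and HIN-200 families are uncertain to that extent.

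Of 9 membrane, GTPase and other effectors, Ifi27l2a was higher, 4 were lower (Mx1, Bst2, Xaf1 and Rtp4) and Ifitm1, Ifitm2, Ifitm3 and Ifi44 were not called. Xaf1, a binding partner of the apoptosis inhibitor XIAP, was at 9.86, 7.74 and 9.21 CPM in None, 5.37 and 3.79 in Kira8, 1.92 and 1.79 in Stattic, and 1.95, 2.44 and 2.09 in Kira8+Stattic (log2 -2.27 ± 0.29 SE for Stattic alone, edgeR adjusted p = 8.87e-05). Its 4 groups formed 3 separate levels, None, Kira8 and the libraries with Stattic. The log2 values of Xaf1 and Rtp4 turned, with all 12 libraries, to 1.36 and 0.46 (edgeR adjusted p = 0.603 and 0.901). Rtp4 was at 1.19, 1.6 and 0.59 CPM in None, 0.117 and 0 in Stattic, near or under the 0.0586 and 0.0578 CPM that 3 counts represent in those libraries, so no fold is given, and its call ended without Stattic replicate 3 (edgeR adjusted p = 0.0794). Bst2 encodes tetherin, which holds budding virus at the membrane, and was lower by 1.51-fold (edgeR adjusted p = 0.045), a call that ended without any 1 of 6 of the 10 libraries.

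Of 4 nucleic acid sensors, Ifih1 (MDA5) and Zbp1 were lower, and Ddx58 (RIG-I) and Dhx58 (LGP2) were not called. Zbp1, which binds left-handed nucleic acid and starts necroptosis, was at 86, 65.1 and 104 CPM in None, 44.2 and 53.3 in Kira8, 25.9 and 16.7 in Stattic, and 25.7, 24.9 and 20.1 in Kira8+Stattic. None, Kira8 and the 5 libraries with Stattic did not overlap (Stattic against None, log2 -2.0 ± 0.25 SE, edgeR adjusted p = 8.37e-05). Ddx58 had a difference of -0.52 ± 0.23 SE on the log2 scale (edgeR adjusted p = 0.0916).

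The poly-ADP-ribose polymerase genes and their partner were among the largest decreases, with 4 of 5 lower and Parp12 not called. Parp14 (ENSMUSG00000034422, chr16:35832874-35871544), a mono-ADP-ribosyltransferase, was at 153, 191 and 241 CPM in None, 216 and 222 in Kira8, 32.3 and 29.4 in Stattic, and 41.4, 35.8 and 25.9 in Kira8+Stattic. Dtx3l (ENSMUSG00000049502, chr16:35926511-35939151), the ubiquitin ligase partner of PARP9, was at 145, 138 and 214 CPM in None, 147 and 139 in Kira8, 28.4 and 25.4 in Stattic, and 30.2, 20.6 and 19.3 in Kira8+Stattic. For both, None and Kira8 overlapped and each library with Stattic was far below them. The decrease with Stattic alone was 6.32-fold for Parp14 (edgeR adjusted p = 1.02e-05) and 6.17-fold for Dtx3l (edgeR adjusted p = 1.44e-05). Dtx3l also kept its call with all 12 libraries (log2 -2.86, edgeR adjusted p = 0.0369). Parp10 was lower by 4.34-fold and Parp9 by 2.41-fold (edgeR adjusted p = 9.39e-05 and 0.000129).

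All 4 Schlafen genes, growth and RNA regulators of T cells that sit together on chromosome 11, were lower, with a median of -2.42 on the log2 scale. Slfn2, which maintains T cell quiescence, was at 472, 657 and 485 CPM in None, 326 and 328 in Kira8, 105 and 91.5 in Stattic, and 88.1, 79 and 93 in Kira8+Stattic (log2 -2.45 ± 0.19 SE for Stattic alone, edgeR adjusted p = 4.36e-06). Kira8 lay between None and the libraries with Stattic, without overlap. Slfn5 was at 24, 30.8 and 29.9 CPM in None, 12.4 and 9.78 in Kira8, 4.36 and 4.37 in Stattic, and 3.37, 2.42 and 1.95 in Kira8+Stattic, a 6.46-fold decrease with Stattic alone (edgeR adjusted p = 1.72e-05). Slfn1 was lower by 5.24-fold and Slfn8 by 3.65-fold (edgeR adjusted p = 1.67e-05 and 0.000775).

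Of the 3 HIN-200 genes, whose products bind DNA, Ifi213 was lower, and Ifi203 and Ifi209 were not called. All 4 of the nuclear body, adaptor and TRIM genes were lower: Ifi35 by 3.28-fold, Trim30a by 3.21-fold, Nmi by 1.65-fold and Sp100 by 1.43-fold. The calls of Sp100, Ifi213 and Nmi ended without Stattic replicate 3 (edgeR adjusted p = 0.173, 0.147 and 0.0662), that of Sp100 also without None replicate 3 or Stattic replicate 1, and that of Ifi213 also without None replicate 2 or Stattic replicate 1. For Ifi213 the log2 value turned to 1.64 with all 12 libraries. Ifi35 and Nmi encode interacting partners, and Trim30a restrains inflammatory signalling.

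Of the 3 interferon regulatory factors among the 49, Irf1 was lower and Irf7 and Irf9 were not called. Irf1 (ENSMUSG00000018899, chr11:53770014-53778374), whose promoter stretch printed above holds the GAS core, was at 382, 274 and 340 CPM in None, 405 and 353 in Kira8, 77 and 78.6 in Stattic, and 98.2, 106 and 92.8 in Kira8+Stattic. The 5 libraries with Stattic were all lower than the 5 without, and the decrease with Stattic alone was 4.27-fold (log2 -2.09 ± 0.18 SE, edgeR adjusted p = 6.97e-06). Irf7, which drives type I interferon genes, had a log2 difference of -0.50 ± 0.21 SE (edgeR adjusted p = 0.0719). Irf9, the DNA-binding part of ISGF3, one of -0.12 ± 0.15 SE (edgeR adjusted p = 0.558).

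Kira8 alone against None gave fewer calls, with 15 genes lower, 1 higher and 33 not called. Over all genes, 9.59% were lower and 9.7% higher. The median of the 49 was -0.72 on the log2 scale, against 0.00 for all genes. The lower genes were Oas2, Oas3, Isg20, Cmpk2, Bst2, Ifitm1, Xaf1, Ifih1, Zbp1, Ifi203, Slfn1, Slfn2, Slfn5, Nmi and Ifi35. The largest among those above 5 CPM were Ifi203 (25.7, 51.3 and 27.4 CPM in None, 11.9 and 8.78 in Kira8, log2 -1.75 ± 0.51 SE, edgeR adjusted p = 0.0303) and Slfn5 (log2 -1.34 ± 0.25 SE, edgeR adjusted p = 0.00289). Ifih1, the RNA sensor MDA5, followed (31.5, 63.5 and 36.6 CPM in None, 15.9 and 24.3 in Kira8, log2 -1.13 ± 0.28 SE, edgeR adjusted p = 0.0152), and then Ifitm1, which blocks virus entry at membranes (43.7, 28 and 24.5 CPM in None, 17.3 and 13 in Kira8, log2 -1.08 ± 0.28 SE, edgeR adjusted p = 0.0172). None of these 4 genes overlapped between None and Kira8, which adds little, since they were picked as the largest calls of this same comparison. Their calls rest on few libraries: leaving out Kira8 replicate 3 ended those of Ifi203, Slfn5 and Ifitm1, leaving out Kira8 replicate 1 those of Ifi203, Ifih1 and Ifitm1, and leaving out None replicate 2 that of Ifi203, and of the 15 lower genes 3 and 2 were still called in the absence of Kira8 replicate 1 and 3, respectively.

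The gene higher with Kira8 was Oasl1 (log2 1.77 ± 0.54 SE, n = 3 and 2, edgeR adjusted p = 0.0376), named after its values were seen. Its call ended without any 1 of the 3 None libraries, without Kira8 replicate 3 and without Kira8+Stattic replicate 2. None of the 5 genes of the PARP and DTX3L group was called with Kira8, where the edgeR test gave 0 at an unadjusted p under 0.05 also, and the log2 difference was 0.17 ± 0.22 SE for Parp14. For Irf1 it was 0.19 ± 0.17 SE (edgeR adjusted p = 0.486). With all 12 libraries, 0 genes were called in either direction (edgeR), where 0% of all genes were called. At an unadjusted p under 0.05, 1 gene was higher and 2 were lower. The log2 values of Isg20, Cmpk2 and Xaf1 turned there to 1.43, 1.79 and 1.74.

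With both inhibitors against None, 25 genes were lower, 5 higher and 19 not called, where 20.0% and 20.8% of all genes were called lower and higher. The median of the 49 was -1.03 on the log2 scale. This comparison uses the None libraries of the comparisons above, so its values are given only beside theirs. Slfn5 was lower by 11-fold (edgeR adjusted p = 1.11e-06), Slfn1 by 8.04-fold, Dtx3l by 7.09-fold and Slfn2 by 6.20-fold. Isg15 was higher by 3.63-fold (log2 1.86 ± 0.35 SE, n = 3 and 3, edgeR adjusted p = 0.00106) and Ifi27l2a by 2.04-fold. The sensor Ddx58 was lower by 1.68-fold here (edgeR adjusted p = 0.0103, and 0.0521 without None replicate 3), with 16.5, 16.7 and 23.2 CPM in None and 12.7, 12.4 and 8.48 in Kira8+Stattic. With all 12 libraries, 2 genes were called lower (Dtx3l and Slfn2) and 0 higher, where 0.138% and 0.133% of all genes were called. At an unadjusted p under 0.05 there were 12 lower and 2 higher.

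Stattic on top of Kira8, Kira8+Stattic against Kira8, shares no library with Stattic against None, so the 5 higher and 27 lower genes could be followed in separate libraries. Of the 49 genes, 19 were lower and 7 higher, with a median of -0.39 on the log2 scale, where 16.0% and 14.7% of all genes were called and their median was 0.12. The 5 genes higher with Stattic alone were all higher again (100%, against 47.7% of the 4270 genes higher over the whole table). Of the 27 lower genes, 17 were lower again (63.0%, against 53.7% of 4011 genes), 10 were not called, and 24 had a negative change. The share keeping its sign was not computed over all genes.

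Rsad2 rose 7.42-fold on top of Kira8 (log2 2.89 ± 0.36 SE, n = 2 and 3, edgeR adjusted p = 0.000163) and Isg15 rose 5.08-fold (log2 2.35 ± 0.41 SE, edgeR adjusted p = 0.00129). Oasl1 rose by 2.25 ± 0.56 SE and Oasl2 by 1.48 ± 0.35 SE on the log2 scale (edgeR adjusted p = 0.00997 and 0.0069). The calls of Oasl1 and Oasl2 ended without Kira8 replicate 1 (edgeR adjusted p = 0.102 and 0.103). Ifi27l2a was higher by 0.77 ± 0.22 SE (edgeR adjusted p = 0.022), a call that ended without either Kira8 library, without Kira8+Stattic replicate 2 or 3, and with library size alone as the scaling (edgeR adjusted p = 0.0511). Ifitm1, an entry inhibitor, was at 17.3 and 13 CPM in Kira8 and 37.2, 30 and 23.9 in Kira8+Stattic, and Ifi209 at 6.36 and 3.31 and at 9.05, 9.76 and 8.33. Both were higher on top of Kira8 (log2 1.00 and 0.90, edgeR adjusted p = 0.017 and 0.024). Those calls ended without Kira8 replicate 3 (edgeR adjusted p = 0.162 and 0.272), that of Ifitm1 also without Kira8+Stattic replicate 1 (0.0551), and that of Ifi209 also without Kira8+Stattic replicate 2 (0.0662) and with library size alone (0.052).

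The genes lower both times were Trim25, Eif2ak2, Oas3, Adar, Xaf1, Zbp1, Parp9, Parp10, Parp14, Dtx3l, Slfn1, Slfn2, Slfn5, Slfn8, Ifi35, Trim30a and Irf1. Parp14 fell 6.39-fold (log2 -2.67 ± 0.22 SE, edgeR adjusted p = 1.46e-05), Dtx3l 6.11-fold (edgeR adjusted p = 2e-05), Slfn1 4.76-fold (edgeR adjusted p = 3.05e-05) and Slfn5 4.32-fold (edgeR adjusted p = 9.1e-05). For Parp14, Dtx3l and Irf1 the decrease was near that with Stattic alone, 6.32-fold, 6.17-fold and 4.27-fold there, and for Irf1 3.82-fold on top of Kira8. Zbp1, Xaf1, Oas3 and Ifi35 fell by 2.07-fold, 2.12-fold, 1.93-fold and 1.75-fold on top of Kira8, and each was lower with Kira8 alone as well. Leaving out Kira8 replicate 3 ended the calls of Oas3, Trim25 and Zbp1 (edgeR adjusted p = 0.121, 0.0625 and 0.0583), and leaving out Kira8 replicate 1 that of Xaf1 (0.127). The call of Ifi35 also ended without Kira8 replicate 3 (edgeR adjusted p = 0.0899), and that of Eif2ak2 without either Kira8 library or without Kira8+Stattic replicate 2 or 3. Without Kira8 replicate 3, 12 genes were lower and 4 higher. Samhd1, a nucleotide hydrolase, and Irf9 were lower here (log2 -0.66 ± 0.22 and -0.70 ± 0.15 SE, edgeR adjusted p = 0.0397 and 0.0044), the call of Samhd1 ended without any 1 of 4 libraries, and that of Irf9 ended without Kira8 replicate 3 (0.0615).

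The 10 genes lower with Stattic alone but not called on top of Kira8 were Usp18, Ifit1, Oas2, Mx1, Bst2, Rtp4, Ifih1, Ifi213, Sp100 and Nmi. Several of them were already low in Kira8, such as Oas2 at 0.553 and 0.317 CPM in Kira8 and 0.306, 0.823 and 0.284 in Kira8+Stattic, against 1.55 to 3.77 in None. Being called in one comparison and not the other does not show that the changes differ, which the interaction tests. With all 12 libraries, 0 genes were called in either direction on top of Kira8 (edgeR), 3 higher and 6 lower at an unadjusted p under 0.05. Of the 7 higher and 19 lower genes, 5 and 19 kept their sign there, and Rsad2 and Oasl2 had changes of -0.81 and -1.40. The counts of these 2 genes in Kira8 replicate 2 were 131 and 128. There 3 counts correspond to 0.608 CPM, so that library without Stattic was above each of the 10 libraries for both genes.

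**Figure D3:**
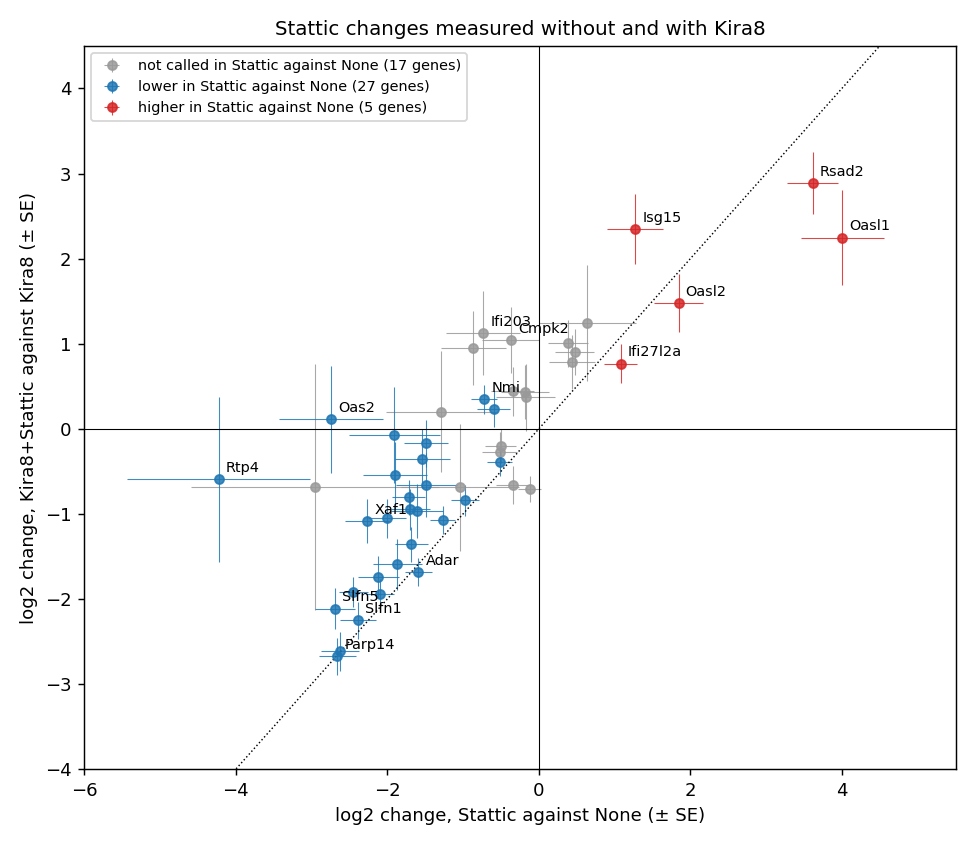
Each point is 1 of the 49 genes, with its log2 change in Stattic against None (x axis) and in Kira8+Stattic against Kira8 (y axis), bars giving the SE and the dotted line equal change. The sign on the x axis follows from the call that sorted the genes. On the y axis all 5 genes higher with Stattic alone are above 0, and 24 of 27 lower genes are below 0. The share of all genes keeping their sign was not computed.

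Kira8 on top of Stattic left the genes without a call. In Kira8+Stattic against Stattic, 0 of 49 genes passed edgeR's test, 3 did so at an unadjusted p under 0.05, and DESeq2 (0.137% and 0.104% of all genes higher and lower) and limma voom (0% and 0.00471%) called 0 as well. Over all genes 0.00942% were called higher and 0.00471% lower by edgeR, and the median of the 49 was 0.03 on the log2 scale. Log2 differences ran from -0.76 for Slfn5 to 0.87 for Ifit1 in the 48 genes other than Rtp4, which was near 0 counts in Stattic. Over the 5 libraries with Kira8 and the 5 without it, no gene of the 49 was separated without overlap, where 0.636% and 0.692% of all genes were, higher and lower. For Stattic, 5 genes were higher in all 5 libraries with it and 19 were lower, where 16.4% and 14.8% of all genes were. The 19 were the 17 genes lower in both comparisons, Mx1 and Sp100.

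The interaction, the Stattic change with Kira8 minus that without, asked whether the change with Stattic depended on Kira8. Nmi, an adaptor that binds STATs and IFI35, was the 1 gene called, and it was higher (log2 1.07 ± 0.24 SE, edgeR adjusted p = 0.0184). No gene was called lower, where 4.55% and 3.97% of all genes were called higher and lower. At an unadjusted p under 0.05, 14 genes were above and 2 below 0, and the share of all genes at that threshold was not computed. DESeq2 called 7 higher and 0 lower, and 7.83% and 6.56% of all genes. Nmi was at 30.6, 30.1 and 31.1 CPM in None, 16 and 13.8 in Kira8, 20.8 and 16.2 in Stattic, and 19.2, 18.4 and 19.2 in Kira8+Stattic. All libraries with an inhibitor were lower than None, and Kira8 was lowest. The call ended without Kira8 replicate 1, Kira8 replicate 3 or Stattic replicate 3 (edgeR adjusted p = 0.0645, 0.116 and 0.0834). The interaction was above 0 for 41 of 49 genes, with a median of 0.58 against 0.01 for all genes, and for Parp14 and Dtx3l it was -0.01 ± 0.31 and 0.01 ± 0.32 SE.

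Genes of the pathway upstream were read from a list of 44, of which 39 passed the filter. With Stattic alone 7 were higher, 19 lower and 13 not called, and with Kira8 alone 9 were higher and 8 lower. Over all genes, 20.1% were higher and 18.9% lower with Stattic, and 9.7% higher and 9.59% lower with Kira8. The same shares stand beside the counts for the parts of this list below. Among the ligands, Ifnb1, Ifne, Ifnl2 and Ifnl3 had no counts in any of the 10 libraries, so that each could be present at up to the 0.0387 to 0.0586 CPM that 3 counts represent. Ifng was at 120, 289 and 96.4 CPM in None, 9.73 and 9.3 in Kira8, 18.1 and 8.15 in Stattic, and 8, 11.7 and 5.42 in Kira8+Stattic. Every library with an inhibitor was far below None, by 12.9-fold with Stattic (log2 -3.69 ± 0.53 SE, edgeR adjusted p = 0.000227) and 17.7-fold with Kira8 (log2 -4.15 ± 0.55 SE, edgeR adjusted p = 0.000415). Of the 27 genes of the 49 lower with Stattic, 11 were lower with Kira8 also and 16 were not called. The 11 were Oas2, Oas3, Bst2, Xaf1, Ifih1, Zbp1, Slfn1, Slfn2, Slfn5, Nmi and Ifi35. Both comparisons use the same None libraries, which alone can produce shared calls, and the same overlap over all genes was not computed. Whether the 2 changes of a gene differ, and whether Ifng had a part in them, was not tested. In the fit of all 12 libraries, 1 of the 26 pathway genes called with Stattic kept its call (Ifng, edgeR adjusted p = 0.0468), 0 of the 17 called with Kira8 did (Ifng, 0.275), and all kept their sign.

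Of 6 receptor genes, 4 were higher and 1 lower with Stattic alone, and 4 were higher with Kira8 alone. The lower gene was Il10rb, a chain shared by the receptors of interleukin-10 and interferon lambda and named after its values were seen, at 20.7, 25.9 and 19.5 CPM in None, 34.5 and 33.9 in Kira8, 15.5 and 12 in Stattic, and 14.4, 13.2 and 13.3 in Kira8+Stattic. It fell with Stattic (log2 -0.68, edgeR adjusted p = 0.0128, and 0.133 without Stattic replicate 3) and rose with Kira8 (log2 0.64, edgeR adjusted p = 0.0272), a call that ended without either Kira8 library or without None replicate 1 or 3. Ifnar1 was at 56.6, 72.3 and 71.4 CPM in None, 198 and 203 in Kira8, 125 and 124 in Stattic, and 149, 173 and 136 in Kira8+Stattic (log2 0.90 ± 0.16 SE with Stattic and 1.58 ± 0.16 SE with Kira8, edgeR adjusted p = 0.000937 and 0.000104). All libraries with an inhibitor were above None and Kira8 was highest. Ifngr1 and Ifngr2, the interferon gamma receptor chains, rose by 0.92 ± 0.17 and 0.70 ± 0.18 SE with Stattic and by 1.5 ± 0.17 and 1.27 ± 0.18 SE with Kira8 on the log2 scale. The Stattic call of Ifngr2 ended without Stattic replicate 1 (edgeR adjusted p = 0.0853) and with library size alone (0.057). Ifnar2 was higher with Stattic by 0.47 ± 0.15 SE (edgeR adjusted p = 0.0274), which ended under several alternatives, with adjusted p from 0.0506 to 0.414.

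Below the receptors, the kinases split. Jak1 was at 280, 362 and 374 CPM in None, 380 and 397 in Kira8, 655 and 813 in Stattic, and 548, 711 and 678 in Kira8+Stattic, and was higher with Stattic (log2 1.12 ± 0.18 SE, edgeR adjusted p = 0.000507). Tyk2, the kinase of the type I receptor, was lower with Stattic (64.6, 59 and 78.1 CPM in None, 35.7 and 31.2 in Stattic, log2 -1.01 ± 0.22 SE, edgeR adjusted p = 0.00351). Jak2, the kinase paired with JAK1 at the interferon gamma receptor, was higher with Kira8 (log2 1.36 ± 0.26 SE, edgeR adjusted p = 0.00335) and not called with Stattic (log2 0.64 ± 0.26 SE, edgeR adjusted p = 0.0687).

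Stat2 was at 63.6, 65.2 and 84.5 CPM in None, 125 and 120 in Kira8, 38.9 and 40.4 in Stattic, and 62, 61.2 and 43.6 in Kira8+Stattic. It was higher with Kira8 (log2 0.79 ± 0.18 SE, edgeR adjusted p = 0.0104) and lower with Stattic (log2 -0.84 ± 0.19 SE, edgeR adjusted p = 0.00423). The Kira8 call of Stat2 ended without Kira8 replicate 1 or 3 (edgeR adjusted p = 0.0838 and 0.0689).

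Of 8 other IRF genes, 7 were lower and 1, Irf2bpl, higher with Stattic alone, its call ending without Stattic replicate 3 (edgeR adjusted p = 0.0927). Irf8, a factor of myeloid and B cells that helper T cells also use, was at 269, 255 and 224 CPM in None and 65.1 and 45.8 in Stattic, a 4.5-fold decrease. Of 11 sensing adaptors and kinases, 5 were lower and 0 higher with Stattic, among them the endosomal receptors Tlr7 and Tlr9. Socs1, which restrains the JAK kinases, was at 128, 66.2 and 90.7 CPM in None, 37 and 31.8 in Kira8, 27.3 and 18.8 in Stattic, and 13.2, 21.6 and 21.4 in Kira8+Stattic. It was lower with Stattic (log2 -2.04 ± 0.31 SE, edgeR adjusted p = 0.000293) and with Kira8 (log2 -1.47 ± 0.30 SE, edgeR adjusted p = 0.00499), and the Kira8 call ended without Kira8 replicate 3 (0.0656).

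**Figure D4:**
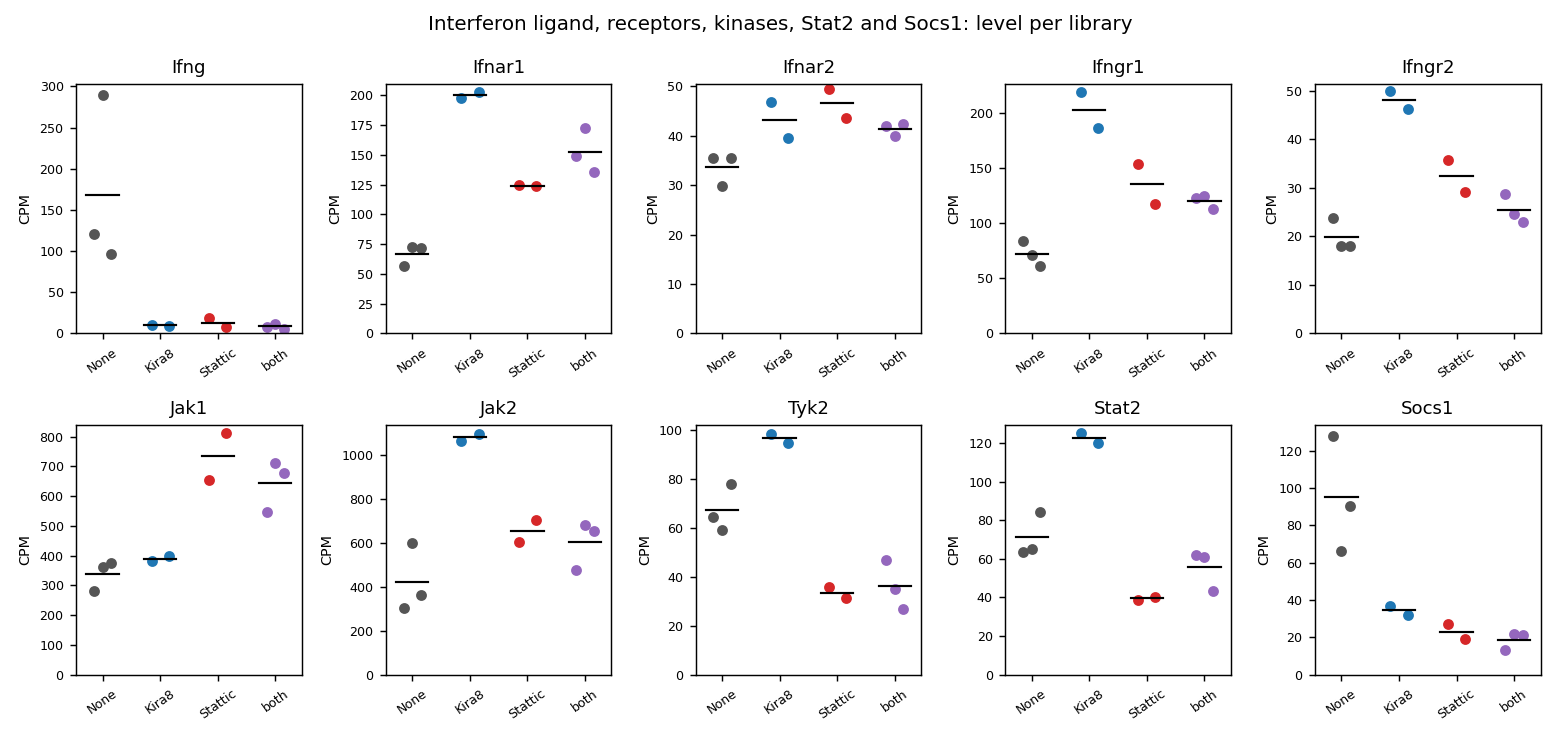
Points are the CPM of each of the 10 libraries by group, and bars are group means, for the ligand Ifng, 4 receptor chains, 3 kinases, Stat2 and Socs1. Ifng is high in None alone, Ifnar1, Ifngr1 and Ifngr2 are highest in Kira8, and Jak1 is higher in the 5 libraries with Stattic than in the 5 without.

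With Stattic alone, 18.9% of all genes were lower and 20.1% higher. A list of 77 further interferon-stimulated genes, 76 of them tested, gave 44 lower, 7 higher and 25 not called there. Its median was -0.91 on the log2 scale. Of these 51 calls 0 remained with all 12 libraries (edgeR), where 7 of 7 higher and 41 of 44 lower genes kept their sign. The higher genes included Mx2, given above, and Trex1, an exonuclease that clears DNA (log2 1.92 ± 0.36 SE, edgeR adjusted p = 0.00117). Tmem140 was at 6.06, 4.11 and 6.37 CPM in None, 12.4 and 16.2 in Kira8, 17.2 and 24.1 in Stattic, and 14.9, 16.8 and 18.9 in Kira8+Stattic, and Trafd1 rose by 0.91 ± 0.16 SE with Stattic. Ifit1bl1, a relative of Ifit1 named after its values were seen, was at 1.51, 1.86 and 1.12 CPM in None, 0.439 and 0.0668 in Kira8, 6.12 and 5.8 in Stattic, and 3.75, 3.16 and 5.13 in Kira8+Stattic. The chemokine gene Cxcl10 was at 20.2, 17.1 and 13.6 CPM in None, 30.7 and 34.1 in Kira8, and 0.636 to 1.90 in the 5 libraries with Stattic, a 20.0-fold decrease with Stattic alone (log2 -4.32 ± 0.43 SE, edgeR adjusted p = 1.8e-05), and log2 -2.91 with all 12 libraries (edgeR adjusted p = 0.166). Trim21, an antibody receptor in the cytosol, Lgals3bp and the nuclear body gene Sp110 were lower by 7.60-fold, 7.77-fold and 4.44-fold.

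Markers of other cells and stress genes also differed between the groups. Beside the counts of calls below, 18.9% of all genes were lower and 20.1% higher with Stattic, and 9.59% were lower with Kira8. The 6 B cell markers summed to 113 to 130 CPM in None, 36.9 to 45 in Kira8, 14.1 to 24.2 in Stattic and 16.5 to 33.5 in Kira8+Stattic, and 6 of 6 were lower with Stattic and 4 of 6 with Kira8. The 6 CD8 T and NK cell markers summed to 133 to 230, 42.5 to 55.9, 76.4 to 99.4 and 50.9 to 84.4 CPM in the same order, with Ncr1 at 0 outside None. The 7 monocyte and macrophage markers summed to 28.8 to 45, 60.1 to 62.9, 38.3 to 49.9 and 27.6 to 105 CPM, and the 5 plasmacytoid dendritic cell markers to 47.5 to 54.4, 41.4 to 47.1, 38.3 to 41.7 and 37.3 to 46.3 CPM, with Siglech at 0 in None and Stattic. The 5 conventional dendritic cell markers summed to 18.7 to 22.7 CPM in None, 17.0 to 19.3 in Kira8, 9.23 to 10.5 in Stattic and 7.67 to 13.6 in Kira8+Stattic, and 2 of the 4 tested were lower with Stattic, with Clec9a at 0 in the 5 libraries with it. Of 6 Th17 markers 4 were lower and 1 higher with Stattic, and their sum was 699 to 2777 CPM in None and 743 to 767 in Stattic. The part of these cells in the results was not tested. The plasmacytoid dendritic cell markers include Bst2, itself an interferon-stimulated gene called lower above with Stattic and with Kira8. Their sum therefore partly repeats that gene's change. All 6 heat shock genes were higher with Stattic alone in the 10 libraries, with a median of 3.74 on the log2 scale. Their rises ran from 4.20-fold for Hsp90aa1 to 382-fold for Hspa1a and 408-fold for Hspa1b. Hspa1b averaged 41.6 CPM in None and 16979 CPM in Stattic. None of the 6 kept its call with all 12 libraries (edgeR adjusted p from 0.07 to 0.365). The part of the heat shock genes was not tested either.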

How the data were processed

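The authors deposited raw counts per gene for 12 libraries of total RNA from Th17 cells, under mm10 per the submitters' processing notes. The aligner, counter, annotation, strand setting and treatment of multi-mapping reads were not given in the sources used here. The labels' protocols give Trizol extraction and an RNA integrity number over 7.0. Groups were read from the sample titles. Symbols and positions came from GENCODE M21 (GRCm38), which named 55141 of 55401 identifiers.

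Deposited counts were tested in edgeR 4.0.16 (R 4.3.3) with its default low-count filter, TMM scaling and a quasi-likelihood fit with 1 mean per group over 10 libraries. Kira8 replicate 2 and Stattic replicate 2 were left out for the measures given above. Genes were called at an adjusted p under 0.05 (Benjamini-Hochberg, 21239 genes), and the SE is the log2 change divided by the square root of F. Shares of all genes called use the adjusted p, and no such share was taken at an unadjusted p. CPM values are TMM-scaled. DESeq2 1.42.0, limma 3.58.1 and other scalings, filters and library sets were alternatives. The depth of the 10 libraries puts 3 counts at 0.0387 to 0.0586 CPM, and such limits cover counting error only. The closest pair of replicates had a chi-square of 30.0 per gene, so none were copies. The fit was tested on simulated counts.

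The 49 genes, the role, pathway and marker lists and the choice of libraries were made with earlier results of these data known. Genes were named by rule: in Stattic against None the 8 higher and 8 lower genes of largest change with a mean of at least 5 CPM, 4 and 4 in the other comparisons (without the minimum in Kira8+Stattic against Stattic and the interaction), fixed pathway genes, and 4 and 4 of the further list by adjusted p. The others named were chosen after their values were seen, and some genes of the lists are not reported here. Of 80 names in the further list, 3 were older names of genes already listed and were dropped. Promoters were searched for exact matches on both strands. A further motif, the heat shock pair (GAANNTTC or TTCNNGAA), was in 20.0% of the 50 windows and 15.1% of all windows.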

Additional observations from a re-analysis of the deposited data

Results flagged for a closer look

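For 11 named genes the change with Stattic differed between cells without and with Kira8 in the 10 libraries, by edgeR's interaction test over all genes (Benjamini-Hochberg adjusted p under 0.05). In the same 10 libraries that test called 4.55% of all genes higher and 3.97% lower. With all 12 libraries 0 of the 11 calls remained, with edgeR adjusted p from 0.218 (Ifng) to 0.906 (Jak2). There 11 of 11 kept their sign, and 0% of all genes were called. Among the 49 genes this was Nmi, whose interaction was 1.07 on the log2 scale (-0.72 with Stattic alone, 0.35 on top of Kira8). Of the further interferon-stimulated genes, Tmem140 had an interaction of -1.67 (1.91 alone, 0.24 on top of Kira8) and Trafd1 of -1.01 (0.91 and -0.10). Trim21 (1.42), Sp110 (1.2) and Lgals3bp (1.72) fell less on top of Kira8 than alone, by -1.51 against -2.93, -0.95 against -2.15 and -1.24 against -2.96. These further genes were picked by their adjusted p in Stattic against None, a change that the interaction subtracts. The picking itself therefore favours an interaction of opposite sign, and its share in these values was not tested. Ifng had an interaction of 3.50 (-3.69 alone and -0.19 on top of Kira8), which lost its call without Kira8 replicate 1, Kira8 replicate 3 or Stattic replicate 3 (adjusted p = 0.0535, 0.0555 and 0.0531). For the receptor chains the interaction was -1.29 for Ifnar1, -1.67 for Ifngr1 and -1.62 for Ifngr2, with changes of 0.90, 0.92 and 0.70 alone and -0.39, -0.75 and -0.92 on top of Kira8. Jak2 had an interaction of -1.48 (0.64 and -0.84), and its call ended without any 1 of 6 of the 10 libraries.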

How the results depend on the processing

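Leaving out each of the 10 libraries in turn gave 4 to 6 higher and 19 to 28 lower genes of the 49 in Stattic against None, 0 to 1 and 2 to 15 in Kira8 against None, 5 to 6 and 23 to 27 in Kira8+Stattic against None, 4 to 8 and 12 to 20 in Kira8+Stattic against Kira8, and 0 to 3 and 0 in the interaction, with 0 and 0 in Kira8+Stattic against Stattic. With all 12 libraries the higher and lower counts were 0 and 1, 0 and 0, 0 and 2, 0 and 0, and 0 and 0 in the first 5 of these, and with all 12 libraries and the replicate block they were 0 throughout. In Kira8 against None 0 genes were higher under limma voom, in a fit of the 2 groups alone and under voom with quality weights on 12 libraries. The interaction had 7 higher genes in DESeq2 and 2 each with a filter of over 1 CPM in 3 libraries, with the replicate block and under voom with quality weights. With all 12 libraries these called log2 changes turned: in Kira8+Stattic against Kira8, Rsad2 to -0.81 and Oasl2 to -1.40; in Stattic against None, Oas2 to 0.26, Xaf1 to 1.36, Usp18 to 2.04, Rtp4 to 0.46 and Ifi213 to 1.64; in Kira8 against None, Isg20 to 1.43, Cmpk2 to 1.79 and Xaf1 to 1.74. With the replicate block added to the 12, the turned values were Isg15 -0.21, Ifngr1 -0.11 and Usp18 0.074 in Stattic against None, Cmpk2 0.60 and Il10rb -0.27 in Kira8 against None, Irf9 0.20, Ifngr1 0.26, Samhd1 0.17, Rsad2 -0.22 and Oasl2 -0.98 in Kira8+Stattic against Kira8, and Ifngr1 0.37 and Jak2 0.25 in the interaction. The cause was not tested. On the 10 libraries the replicate block left 5 higher and 26 lower genes in Stattic against None and ended the calls there of Ifnar2 and Ifi213 (adjusted p = 0.0517 and 0.0612) and, on top of Kira8, of Socs1 and Samhd1 (0.076 and 0.0665). Same-numbered libraries of different groups correlated at 0.0166 to 0.218 in their deviations from group means, and differently numbered ones at -0.151 to 0.0740. Deviations within a group cancel, so these values depend on each other and do not settle whether the numbers pair the samples. The main fit did not pair them. Scaling by library size alone moved the median of all genes from 0.08 to -0.08 in Stattic against None and from 0.12 to 0.00 in Kira8+Stattic against Kira8. Depth limits Rtp4 and Ifi44, which lie near 3 counts in some libraries.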
